A study of Chlorella sorokiniana and Chromochloris zofingiensis with 12 samples.

Results

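The SNORD, snoZ and snoU entries are small nucleolar RNAs (snoRNAs) of Arabidopsis thaliana to which small RNA reads of 2 green algae were matched. All entries of the snoRNA type whose name starts with SNORD, snoZ or snoU were taken, which gave 33 of the 893 entries listed in any library. They fall into 17 families, with 13 SNORD, 17 snoZ and 3 snoU entries of 76 to 123 bases, placed on the Arabidopsis build TAIR9. The algae were strain NIES-2168 of Chlorella sorokiniana and strain ATCC30412 of Chlorella zofingiensis. Each was sampled from normal and from stress culture, and each of the 4 groups held 3 libraries. For normal culture, cells in Bold's Basal Medium were shaken at 30 rpm and 27 °C and lit without a break at about 10 µmol photons. Stress cultures were started the same way and in mid log phase were given 100 µmol photons of light together with 2% glucose, so the effects of light and of sugar cannot be told apart. The labels number the replicates but do not say that they came from separate cultures, so p-values measure the spread between these libraries, which may be technical.

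Most box C/D snoRNAs guide the methylation of ribose in ribosomal RNA inside the nucleolus. They carry a box C near one end and a box D, with the letters CTGA, near the other, and a guide stretch lies next to box D or to its inner copy. Some members of the class, such as U14 of yeast, also take part in cutting the ribosomal precursor. Plants keep many of these genes in tight genomic clusters that are transcribed together, and fragments of snoRNAs are a regular part of small RNA libraries. The names used here belong to Arabidopsis, and the roles given below are those of the yeast or human RNA of the same name.

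The match to Arabidopsis limits what a count says. Reads were counted at each entry they map to, so entries of like sequence shared reads, and the algal RNA from which a read came was not identified. A low count in one species and a sequence unlike the Arabidopsis entry cannot be told apart. Counts summed over all annotated entries per library ran from 2718 to 26102 in C. sorokiniana, and in C. zofingiensis from 14601 to 280404, of which tRNA entries took 77.5% to 95.7%. The set itself held 83 to 687 reads in a C. sorokiniana library, and 142 to 809 in one of C. zofingiensis. A pair of libraries stands apart from the others: the third normal library of C. sorokiniana, with 2718 annotated counts, and the second stress library of C. zofingiensis, with 280404, in which snoR71 entries alone took 17926. In such bulk RNA, fewer cells with an RNA and less of it per cell cannot be told apart.

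The sheets name the commonest tag (read sequence) of each entry in each library. These tags were searched for the letters of box C and box D. Since the reads were matched to Arabidopsis snoRNA entries, finding these letters follows in part from that match. Such letters do not show that the algal RNA was a box C/D snoRNA. Over the 33 entries there were 58 different tags of 10 to 24 bases, with a median of 16. The letters CTGA of box D, searched on the read strand, stood in 39 of the 58 tags, or 67.2%. Among the commonest tags of all other entries 60 of 658 held them, or 9.12%. The share was 17.9% for the other snoRNAs, 5.42% for tRNAs and 2.56% for rRNAs. Among tags of at least 14 bases, 31 of 41 in the set held the motif, or 75.6%, and of the SNORD tags 19 of 24 did. By reads, tags of the set with the motif took 33.8% to 59.8% of the commonest-tag reads per library. The motif sat close to the end of the read, with 0 to 10 bases and a median of 5 after it. The core of box C, TGATGA, was found in 4 of the 58 tags, at snoU36a on chromosome 4, snoZ101 and snoZ223. These are matches of letters in short reads, with no overlap searched between the 2 motifs, and not mapped sites. Tags ended in A in 55 of 58 cases in the set and in 641 of 658 elsewhere, and the cause was not tested.

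**Figure D1:**
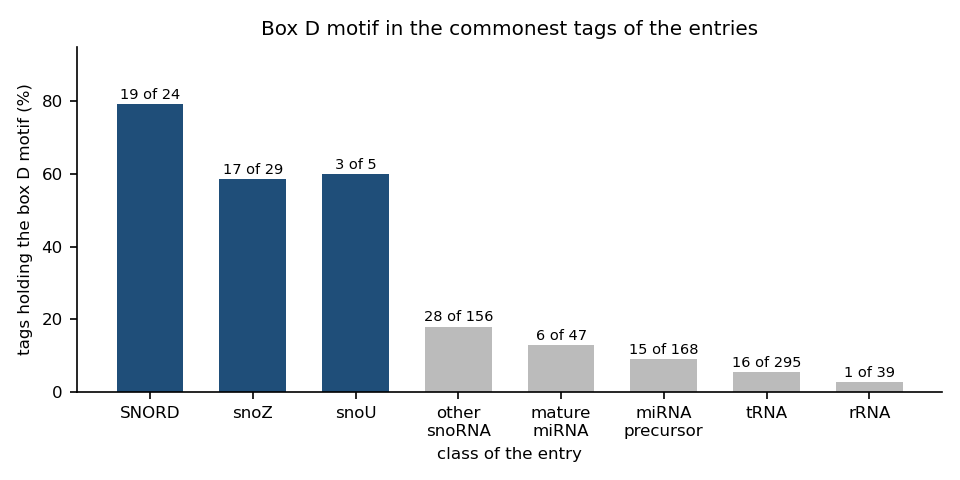
Share of different commonest tags that hold the letters of box D (y axis, percent), by class of the Arabidopsis entry (x axis), with the number of tags above each bar. The SNORD, snoZ and snoU bars stand at 19 of 24, 17 of 29 and 3 of 5 tags, and the other snoRNAs at 28 of 156.

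The tags also show which entries rest on reads that could come from elsewhere. At 7 of the 58 tags the read maps to a single Arabidopsis locus, and these stood at SNORD14, SNORD27, the snoZ157 entry on chromosome 3 and the first snoZ159 entry. At the other extreme was snoZ103 (chromosome 5, 14710597 to 14710695), where one 11-base tag without the motif, mapping to 47 loci, made up 99.8% of the reads in 12 of 12 libraries. The second snoZ159 entry was led in all 12 libraries by one 14-base tag at 22 loci, which held 71.7% of its reads. That tag was contained in 5 listed tags of C. sorokiniana and 9 of C. zofingiensis in the separate table of each library's 100 commonest tags. Those listed tags summed to 3211 to 45314 reads per library, against 15 to 217 reads of the tag at the entry. It was the 1 tag found of 25 searched in C. sorokiniana and of 29 in C. zofingiensis, among tags of at least 12 bases. None of the 58 tags led a tRNA, rRNA or miRNA entry, and 3 led another snoRNA entry. Within the set, 17 tags led more than 1 entry.

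The species differed in which entries had reads. Of the 33, 16 had reads in both species, 6 in C. sorokiniana libraries alone and 11 in C. zofingiensis libraries alone. Only 3 had reads in all 12 libraries, namely snoZ103, the second snoZ159 entry and the snoZ157 entry on chromosome 3. Counts were low: 16 entries never rose above 10 reads and 5 were listed in 1 library. There were 6 pairs of entries that had identical counts in all 12 libraries and these are named together. Per library, 6 to 17 entries were listed in C. sorokiniana normal culture and 14 to 16 under stress, and 17 to 19 and 14 to 19 in C. zofingiensis. The number listed passed the test in none of the 4 comparisons (exact permutation test, two-sided, adjusted p between 0.45 and 0.9 over 12 tests). With 3 libraries against 3 this test cannot give a p below 0.1, so no difference could have passed. In Arabidopsis 19 of the 33 entries lie within 500 bases of another one. The 4 SNORD14 entries stand in a row on chromosome 4, SNORD27 stands 47 bases from snoZ43 on chromosome 4, and the snoZ159 entries are 62 bases apart. Of the snoZ159 neighbours, the first had 2, 0 and 0 reads in C. sorokiniana normal culture where the second had 318, 114 and 20.

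**Figure D2:**
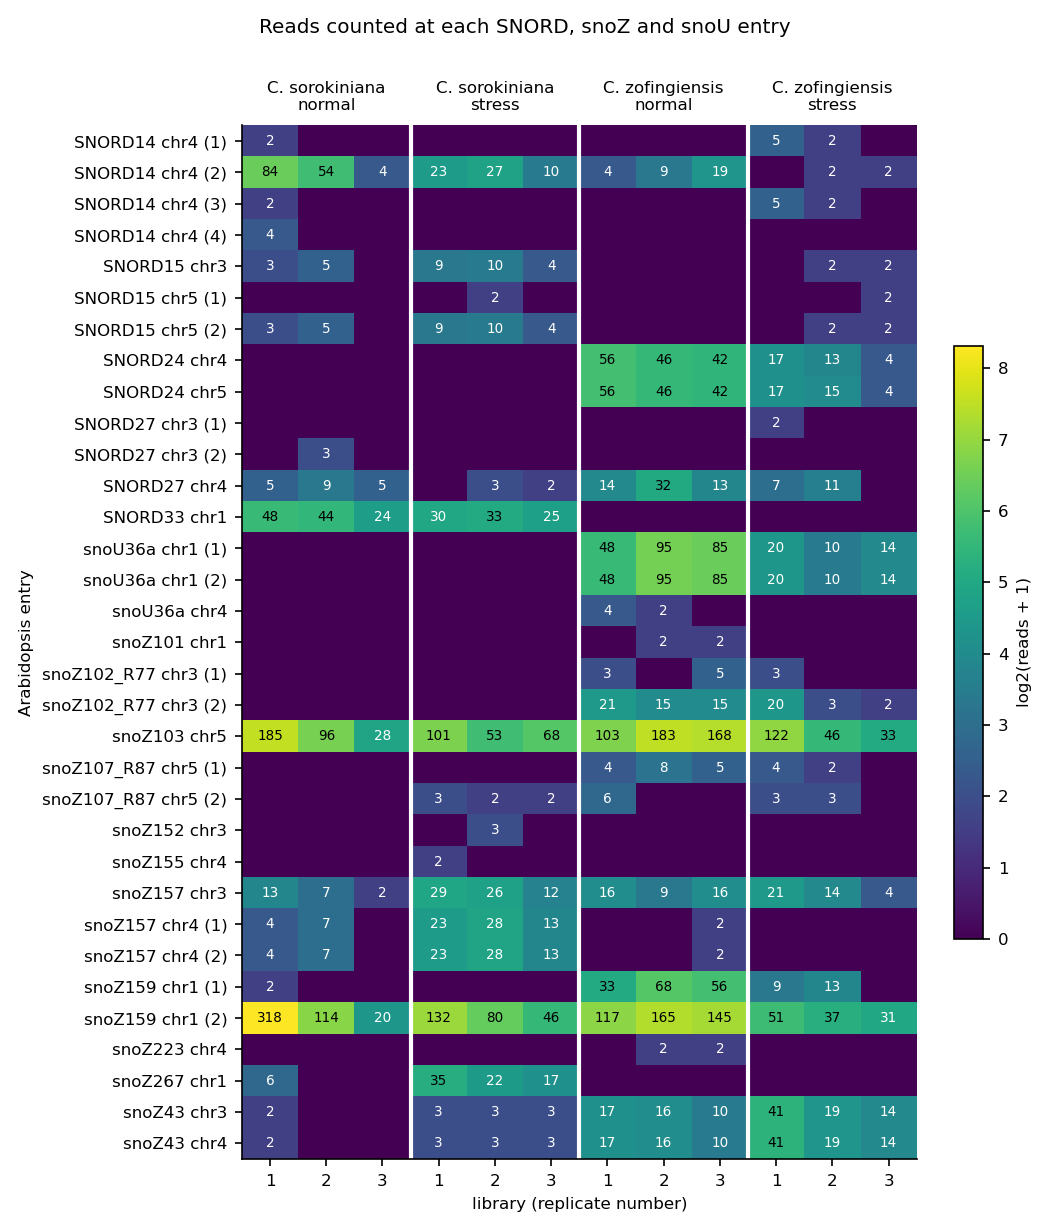
Reads counted at each of the 33 entries (rows, with the Arabidopsis chromosome and, in brackets, the order along it) in each of the 12 libraries (columns). Colour gives log2(reads + 1) and the printed number the reads, with empty cells at 0; SNORD33 has reads in the C. sorokiniana libraries, with 24 to 48, and SNORD24 and snoU36a in those of C. zofingiensis.

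As a whole, the set took a smaller share of the reads under stress in both species. Much of it was the second snoZ159 entry and snoZ103, led by tags at 22 and 47 loci. These entries held 33.8% and 25.3% of the set's reads in C. sorokiniana, and 19.0% and 22.8% in C. zofingiensis. The share without them was not tested. The set's share of snoRNA counts was 43.7%, 46.4% and 53.5% in the normal libraries of C. sorokiniana and 34.0%, 25.7% and 27.6% under stress. The means were 47.9% ± 5.09 (SD, n = 3) and 29.1% ± 4.31 (SD, n = 3), and the groups did not overlap. In C. zofingiensis the share was 21.4%, 20.6% and 22.3% in normal culture and 6.83%, 1.09% and 7.17% under stress. The means were 21.4% ± 0.836 (SD, n = 3) and 5.03% ± 3.41 (SD, n = 3), and again no library of one group lay among those of the other. Each of these differences had an exact two-sided permutation p of 0.1 (n = 3 against 3), the smallest this design allows, and 0.171 after adjustment over 12 tests, so neither passed. In the second stress library of C. zofingiensis, where the share was 1.09%, snoR71 entries took most snoRNA counts. With snoR71 left out, an alternative chosen after seeing the data, the C. zofingiensis shares were 21.7% to 22.9% in normal culture and 7.40% to 9.15% under stress. Those of C. sorokiniana were then 48.9% to 66.4% and 29.4% to 39.0%.

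The same held for the share of all annotated counts. It was 3.54%, 2.44% and 3.05% in C. sorokiniana normal culture against 2.02%, 1.28% and 1.07% under stress. In C. zofingiensis it was 3.88%, 0.762% and 1.40% against 0.670%, 0.080% and 0.569%. No group overlapped the other in either species, at an exact permutation p of 0.1 each (n = 3 against 3, adjusted 0.171). Between the species, the share of snoRNA counts in C. zofingiensis minus that in C. sorokiniana was -26.5 percentage points in normal culture and -24.1 under stress, also at an exact permutation p of 0.1 (n = 3 against 3) without overlap.

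**Figure D3:**
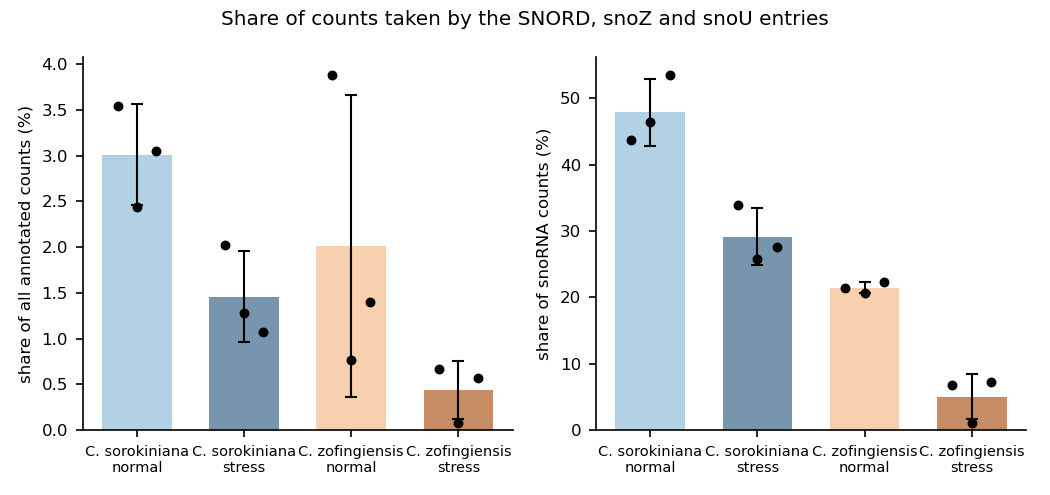
Share of all annotated counts (left) and of snoRNA counts (right) taken by the SNORD, snoZ and snoU entries, in percent, for the 4 groups of 3 libraries. Bars are means, whiskers 1 SD and points single libraries; in both panels the stress points of each species lie below its normal points.

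Single entries were then compared between stress and normal culture with edgeR's quasi-likelihood test over all annotated entries of a species, and an adjusted p below 0.05 was called. In C. sorokiniana 8 of the 22 entries with reads passed the filter on low counts. Of these 8, 4 fell and 1 rose, where 22.3% of the 166 entries tested were called lower and 10.8% higher. Normalised counts of the groups did not overlap for 7 of the 8, against 37.3% of all entries tested. In C. zofingiensis 12 of 27 entries passed the filter, and 7 of them fell and 0 rose, where 12.9% of 248 tested entries were called lower and 22.2% higher. The groups did not overlap for 9 of the 12, against 56.5% of all entries. These counts take entries that share reads as separate, namely the snoU36a and snoZ43 pairs, both SNORD24 entries and the snoZ157 pair. With identical counts entered once, 6 of 10 C. zofingiensis entries were called, all lower, where 14 of 114 tested were lower. In C. sorokiniana 3 of 7 were then called, all higher, where 40 of 63 tested were higher. The median log2 fold change was -0.60 over the 8 entries of C. sorokiniana and 0.19 over all entries tested, and -2.29 and -0.30 in C. zofingiensis. For the other snoRNAs it was -0.05 over 19 entries and -1.10 over 36, with 3 and 17 called lower and 2 and 3 called higher.

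How the libraries were scaled moved the median of all entries, so directions are best read against it. In C. sorokiniana the median of all entries was 0.19 with the TMM factors used here, 0.68 with DESeq2's size factors, 0.50 with library totals alone and 1.41 with identical counts entered once. The split of called entries went from 18 higher and 37 lower to 40 higher and 1 lower in the last of these. Among the 8 entries of the set 1 was called with DESeq2's size factors, which was higher, 7 with totals alone (3 higher, 4 lower) and 3 with identical counts once, all higher. In C. zofingiensis the calls in the set were 7 with DESeq2's size factors and 6 with identical counts once, all lower, but 1 with totals alone. The median of the set minus that of all entries lay between -1.77 and -0.51 in C. sorokiniana, and between -2.50 and -1.16 in C. zofingiensis, over 5 ways of scaling, 1 of which, without tRNA entries, was added after seeing the data. In C. sorokiniana the -1.77 was with identical counts once, over 7 entries rather than 8, and the other ways gave -0.82 to -0.51. With TMM factors 4 of the 8 fold changes were positive, so the set median there lies between entries of opposite sign.

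Entries named after guides of the small ribosomal subunit were SNORD14, SNORD33 and SNORD27, and SNORD14 and SNORD33 held similar numbers of reads in C. sorokiniana, at 202 and 204. U14, its namesake, is needed in yeast for making 18S rRNA and also guides a methylation there. The entry (chromosome 4, 18305255 to 18305377) had 84, 54 and 4 reads in C. sorokiniana normal culture and 23, 27 and 10 under stress. Scaled for library composition, these were 47.5, 40.8 and 20.2 reads per 10000 against 9.98, 10.4 and 4.62, so that each stress library lay below each normal one. The log2 fold change was -2.21 ± 0.57 (SE), and the entry fell (edgeR adjusted p = 0.000769). Its commonest tag held box D in 11 of the 11 libraries with reads, with 5 or 6 bases after it, and no tag was shared between the species. In C. zofingiensis it had 4, 9 and 19 reads in normal culture and 0, 2 and 2 under stress and was below the filter. The other 3 SNORD14 entries of the cluster had 0 to 5 reads in any library.

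SNORD33, which in humans guides a methylation of 18S rRNA, had reads in C. sorokiniana alone. The entry (chromosome 1, 5686090 to 5686182) had 48, 44 and 24 reads in normal culture and 30, 33 and 25 under stress. The normalised counts were 27.1, 33.2 and 121 per 10000 against 13.0, 12.7 and 11.6. The high value, 121, came from normal library 3, the shallow one, but all 3 normal values lay above the stress ones. It fell, with a log2 fold change of -2.03 ± 0.57 (edgeR adjusted p = 0.00187) and of -1.33 without normal library 3 (edgeR adjusted p = 0.00665), and all 3 of its tags held box D with 3 bases after it. In all 6 C. zofingiensis libraries it had 0 reads. Set against 3 counts per library, it was at least 49.2-fold higher in normal C. sorokiniana and at least 21.7-fold higher under stress, as shares of annotated counts. All bounds given here take an absent entry as 0 reads, and would be lower if it held 1 unlisted read. The normal bound was 28.4-fold without C. sorokiniana library 3 and 111-fold without C. zofingiensis library 1. The stress bound was 15.4-fold without C. zofingiensis library 2 and 43.3-fold without C. zofingiensis library 3.

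SNORD27 is a guide of 18S rRNA in humans. Its entry on chromosome 4 (7683937 to 7684019) had 14, 32 and 13 reads in C. zofingiensis normal culture and 7, 11 and 0 under stress. The log2 fold change was -2.21 ± 0.94 and the entry was not called (edgeR adjusted p = 0.0863), although the groups did not overlap. With the replicate number as a block, which pairs the libraries, it fell by 2.41 and was called (edgeR adjusted p = 0.0423). In C. sorokiniana it had 5, 9 and 5 reads against 0, 3 and 2 and was below the filter. Without any filter its log2 fold change there was -3.20 ± 1.00 (edgeR adjusted p = 0.00864). Its tags, all with box D, map to 1 or 2 loci and differed between the species.

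Of the large subunit names, SNORD24 and SNORD15 had reads. SNORD24, a guide of the large subunit rRNA in yeast and humans, had reads in C. zofingiensis alone, at entries on chromosome 4 (13332873 to 13332964) and chromosome 5 (22828961 to 22829045). Both had 56, 46 and 42 reads in normal culture, and under stress 17, 13 and 4 on chromosome 4 and 17, 15 and 4 on chromosome 5. Normalised, the chromosome 4 entry went from 17.2, 7.95 and 8.33 per 10000 to 2.01, 2.08 and 0.761, with no overlap. The log2 fold changes were -2.75 ± 0.58 and -2.66 ± 0.59, and both entries fell (edgeR adjusted p = 0.00659 and 0.00834). They share their tags, so they are 1 measurement rather than 2, and both tags held box D with 6 bases after it. SNORD24 was at 0 in all C. sorokiniana libraries and so at least 3.46-fold higher in normal C. zofingiensis. That bound fell to 1.27-fold without C. zofingiensis normal library 1 and was 9.34-fold without the shallow C. sorokiniana normal library 3. Under stress the bounds were 1.21-fold on chromosome 4 and 1.22-fold on chromosome 5. Without C. zofingiensis stress library 1 they were 0.769-fold and 0.796-fold, which bounds no difference. SNORD15, which guides large subunit rRNA in humans, was low. Its identical pair, on chromosome 3 and the second entry on chromosome 5, had 3, 5 and 0 reads in C. sorokiniana normal culture and 9, 10 and 4 under stress, from an 11-base tag at 45 loci.

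The snoU36a entries are named after U36, whose human relatives guide sites in rRNA of both subunits. The pair on chromosome 1 (875516 to 875605 and 1008809 to 1008898) had identical counts and no reads in C. sorokiniana. In C. zofingiensis it had 48, 95 and 85 reads in normal culture and 20, 10 and 14 under stress. After scaling, with TMM factors from 0.225 to 2.33 in this species, normalised counts lay close together within each group. They were 14.8, 16.4 and 16.9 per 10000 against 2.37, 1.60 and 2.66. The pair fell, with a log2 fold change of -2.85 ± 0.42 (edgeR adjusted p = 0.00157). All 3 tags of 19 to 21 bases held box D with 6 bases after it. Compared with C. sorokiniana at 0, the pair was at least 3.97-fold higher in normal culture and at least 2.30-fold higher under stress. The normal bound was 2.60-fold without C. zofingiensis library 1 and 10.7-fold without C. sorokiniana library 3, and the stress bound 1.36-fold without C. zofingiensis library 3. The third snoU36a entry, on chromosome 4, had 4, 2 and 0 reads in C. zofingiensis normal culture and none under stress.

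Among the snoZ entries, for which no namesake role was assigned, the snoZ159 entries (chromosome 1, 8756227 to 8756304 and 8756367 to 8756453) had the most reads, as counts not divided by length. The first, with a 22-base tag mapping to 1 locus and holding box D, had 33, 68 and 56 reads in C. zofingiensis normal culture and 9, 13 and 0 under stress. These were 10.1, 11.7 and 11.1 normalised reads per 10000 against 1.07, 2.08 and 0. It fell by 3.34 ± 0.90 on the log2 scale (edgeR adjusted p = 0.0182), and the call ended without normal library 2, normal library 3 or stress library 1 (edgeR adjusted p = 0.0717, 0.0853 and 0.109). This entry passed the filter through its normal libraries, where it was high. Without a filter its log2 fold change was -2.98 (edgeR adjusted p = 0.00628). The second had 117, 165 and 145 reads against 51, 37 and 31 in C. zofingiensis. Its normalised counts were 36.0, 28.5 and 28.8 per 10000 against 6.04, 5.91 and 5.90, and it fell by 2.38 ± 0.29 (edgeR adjusted p = 0.00105). In C. sorokiniana the second had 318, 114 and 20 reads against 132, 80 and 46. Normalised, these were 180, 86.1 and 101 per 10000 against 57.3, 30.9 and 21.3, and it fell by 1.77 ± 0.42 (edgeR adjusted p = 0.000172). The listed tags that contain its 14-base tag took 8.87% to 11.1% of the listed reads in C. sorokiniana normal culture and 5.70% to 8.42% under stress. In C. zofingiensis they took 5.71%, 5.47% and 3.97% against 2.64%, 4.01% and 3.89%, and the groups overlapped.

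The snoZ103 entry, with its 11-base tag at 47 loci, fell in both species. It had 185, 96 and 28 reads in C. sorokiniana normal culture and 101, 53 and 68 under stress, which were 105, 72.5 and 142 normalised reads per 10000 against 43.8, 20.5 and 31.4. The log2 fold change was -1.69 ± 0.45 (edgeR adjusted p = 0.000939). In C. zofingiensis it had 103, 183 and 168 reads against 122, 46 and 33. The normal values were nearly equal after scaling, at 31.7, 31.6 and 33.3 per 10000, and the stress values, at 14.4, 7.34 and 6.28, lay below them. The TMM factors behind these values ran from 0.225 in stress library 2 to 2.33 in normal library 1. As shares of annotated counts, without these factors, the C. zofingiensis groups overlapped. There it fell by 1.77 ± 0.37 (edgeR adjusted p = 0.00661), but the log2 fold change was -0.72 without tRNA entries and not called (edgeR adjusted p = 0.161). It was also not called without a filter or with totals alone (edgeR adjusted p = 0.0576 and 0.458). The RNA from which the tag came was not determined.

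snoZ267 (chromosome 1, 6466300 to 6466375) was the entry that rose, in C. sorokiniana. It had 6, 0 and 0 reads in normal culture and 35, 22 and 17 under stress. The normalised counts were 3.39, 0 and 0 per 10000 against 15.2, 8.50 and 7.86. The log2 fold change was 2.51 ± 0.66 (edgeR adjusted p = 0.000939), and it was called higher under all 5 ways of scaling, each run on the same counts. The entry passed the filter through its stress libraries, where it was high. Without a filter the log2 fold change was 2.63 (edgeR adjusted p = 0.00394). The size of these values rests on the 6 reads of normal library 1, without which the normal group is at 0 and the fitted value, 7.25, depends on the prior count. Its tag of 12 bases mapped to 5 loci and its tag of 11 bases to 28, and both held box D with 4 bases after it. In all C. zofingiensis libraries it had 0 reads, so under stress it was at least 18.5-fold higher in C. sorokiniana. That bound was 13.1-fold without C. zofingiensis stress library 2 and 37.0-fold without C. zofingiensis stress library 3. The call ended without stress library 2 or stress library 3 (edgeR adjusted p = 0.0515 and 0.166).

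The snoZ157 entries had more reads under stress in C. sorokiniana too, where the stress libraries were deeper than the normal ones, but were not called. The pair on chromosome 4 (8459706 to 8459807 and 8713238 to 8713339) had 4, 7 and 0 reads in normal culture and 23, 28 and 13 under stress. Normalised, this was 2.26, 5.29 and 0 per 10000 against 9.98, 10.8 and 6.01, without overlap. The log2 fold change was 1.41 ± 0.61 (edgeR adjusted p = 0.0589), and it was called with totals alone, with DESeq2, with identical counts once, without tRNA entries and without normal library 2. The pair passed the filter through its stress libraries, where it was high. The entry on chromosome 3 (7682357 to 7682458) had 13, 7 and 2 reads against 29, 26 and 12, a log2 fold change of 0.48 ± 0.50 (edgeR adjusted p = 0.484). Its normalised counts were 7.34, 5.29 and 10.1 per 10000 against 12.6, 10.0 and 5.55, and the groups overlapped. At the chromosome 3 entry the commonest tag held box D in 3 of 3 normal libraries and in 0 of 3 stress libraries. In these 3 stress libraries it was a tag of 15 to 17 bases at 5 to 21 loci that led the chromosome 4 pair as well. The commonest tag of the chromosome 3 entry held 2 to 5 reads per normal library of C. sorokiniana and 6 to 11 per stress library. In C. zofingiensis the chromosome 3 entry had 16, 9 and 16 reads against 21, 14 and 4, with box D in the commonest tag of 6 of 6 libraries. Its log2 fold change was -0.76 ± 0.68 (edgeR adjusted p = 0.350), and 0.36 without tRNA entries. The chromosome 4 pair had 2 reads there, in 1 normal library.

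**Figure D4:**
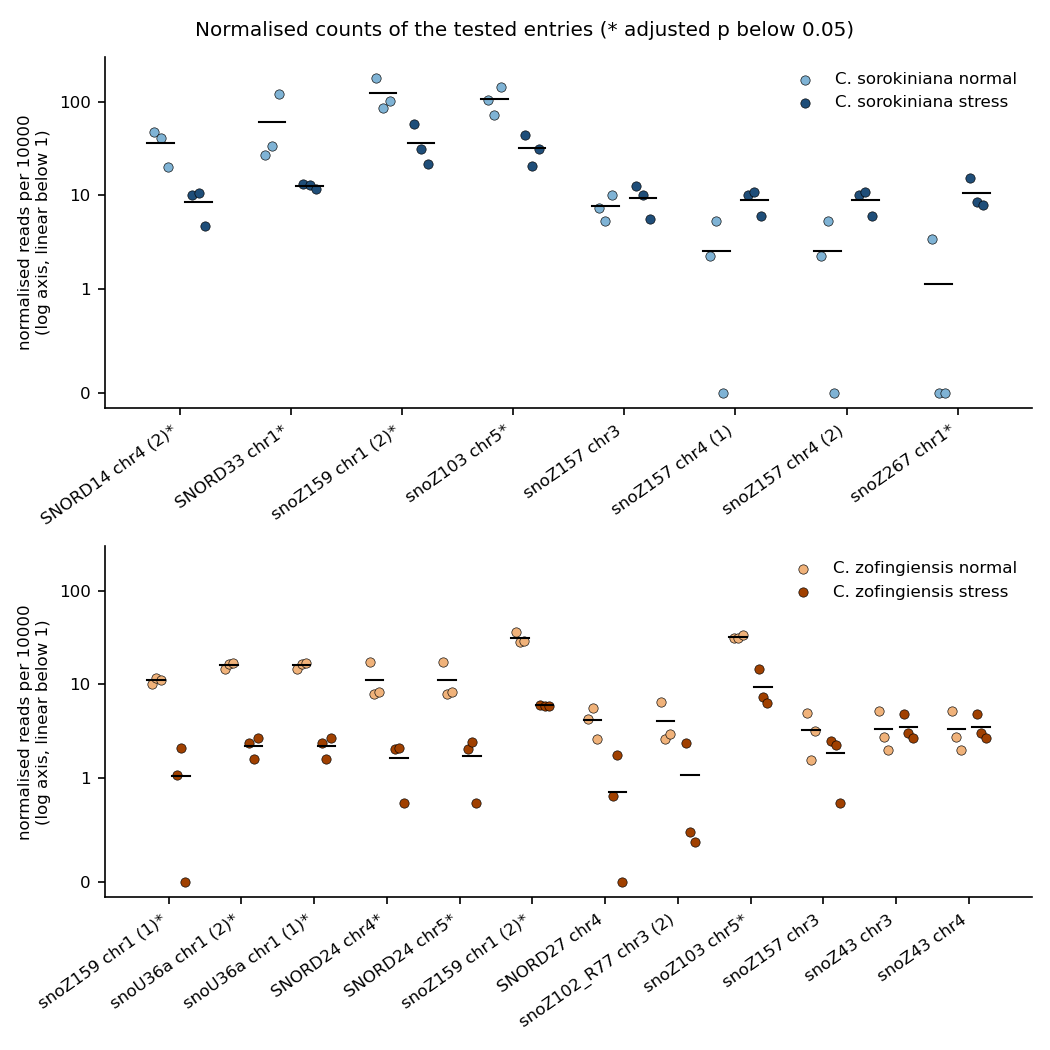
Normalised reads per 10000 (y axis, log scale above 1 and linear below) of the entries that passed the filter in C. sorokiniana (top, 8 entries) and C. zofingiensis (bottom, 12 entries), ordered by log2 fold change. Points are libraries, lines group means and stars mark calls; the stress points lie below the normal ones for 4 called entries in the top panel and 7 in the bottom one, and above them for snoZ267.

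The other tested entries were in C. zofingiensis. The second snoZ102_R77 entry (chromosome 3, 21559241 to 21559324) had 21, 15 and 15 reads in normal culture and 20, 3 and 2 under stress. Its log2 fold change was -1.80 ± 0.82 (edgeR adjusted p = 0.105). With the replicate number as a block it fell by 2.05 and was called (edgeR adjusted p = 0.0277). The snoZ43 pair (chromosome 3, 8979504 to 8979605, and chromosome 4, 7683787 to 7683889) had 17, 16 and 10 reads against 41, 19 and 14. That was 5.23, 2.76 and 1.98 normalised reads per 10000 against 4.85, 3.03 and 2.66, and the groups overlapped. Its log2 fold change was 0.11 ± 0.59 (edgeR adjusted p = 0.856), while it was -0.11 with totals alone. Without tRNA entries it was 1.23 and was called (edgeR adjusted p = 0.0289). In C. sorokiniana the pair had 2 or 3 reads in the libraries where it was listed. Each of the other entries, snoZ101, snoZ107_R87, snoZ152, snoZ155, snoZ223, the first snoZ102_R77 entry, the SNORD27 entries on chromosome 3 and the first SNORD15 entry on chromosome 5, had at most 8 reads in any library.

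The calls in C. sorokiniana rested on single libraries, while those in C. zofingiensis changed less. In C. sorokiniana 4 entries of the set were called without normal library 1, 3 without normal library 2 (all higher), 5 without the shallow normal library 3, and 1 each without stress library 1, 2 or 3. The 1 called without stress library 2 or 3 was SNORD27. Over 13 alternatives, SNORD14 was called lower in 7, SNORD33 in 6, snoZ103 and the second snoZ159 entry in 5 each, and the sign was negative throughout. The snoZ103 value went from -1.69 to -0.90 without stress library 2 and to -1.09 and -1.12 without normal library 2 and stress library 3, and was called under none of these. The second snoZ159 entry went from -1.77 to -0.9997 without normal library 1 and to -1.04 without stress library 3, again without a call. SNORD33 was at -1.34 without normal library 2 or stress library 3, and was then not called (edgeR adjusted p = 0.181 and 0.616). In C. zofingiensis 6 to 8 entries were called with any 1 library left out, and 7 without the deep stress library 2. The snoU36a pair, the second snoZ159 entry and the chromosome 4 entry of SNORD24 were each called in 12 of 13 alternatives, the exception being library totals alone. The chromosome 5 entry of SNORD24 was not called without stress library 1 either (edgeR adjusted p = 0.0502). Without tRNA entries the falls were smaller but still called, at -1.81 for snoU36a, -1.62 and -1.53 for SNORD24 and -1.30 for the second snoZ159 entry.

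**Figure D5:**
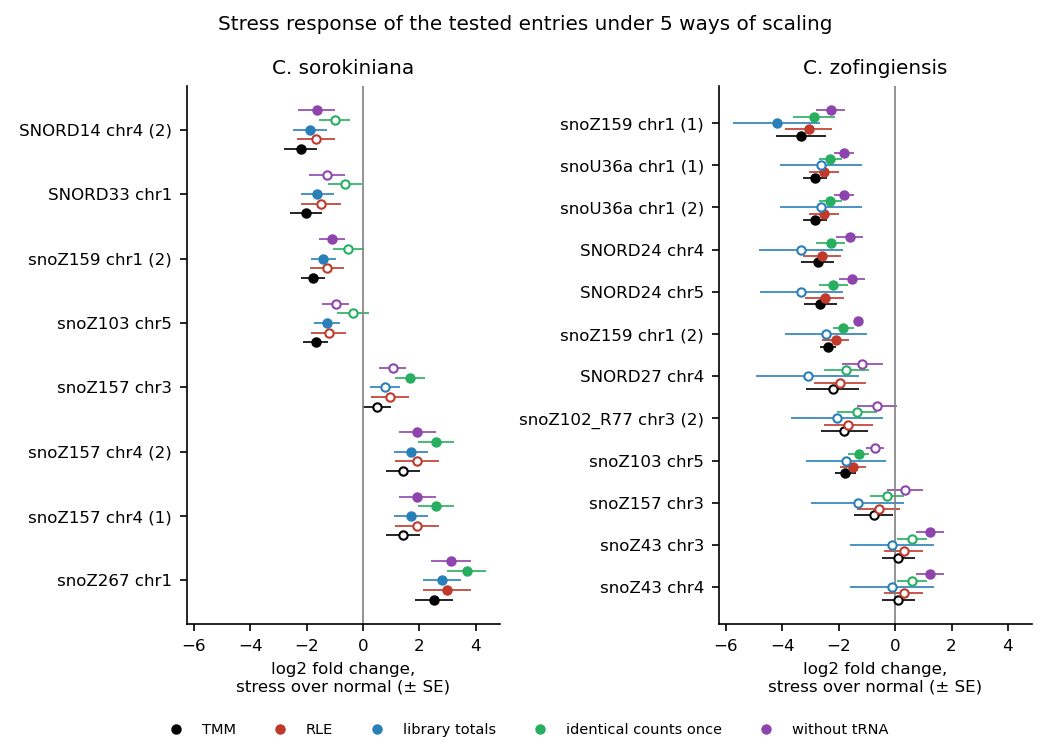
Log2 fold change of stress over normal (x axis, whiskers 1 SE) of the tested entries of each species under 5 ways of scaling, shown by colour, with filled points at an adjusted p below 0.05. In C. zofingiensis the 7 called entries stay left of 0; in C. sorokiniana SNORD14, SNORD33, snoZ103 and the second snoZ159 entry stay left of 0 but with identical counts entered once run from -1.01 to -0.36, none of them called.

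The authors' deposited table of their own comparison lists 11 entries of the set for C. sorokiniana and gives each an FDR of 1, with 13 of its 218 rows below 0.05. For C. zofingiensis the authors' deposited table lists 14 entries of the set, with a lowest FDR of 0.337, and none of its 337 rows is below 0.05. The smallest p among the entries in the authors' deposited table was 0.0360, at the first snoZ159 entry of C. zofingiensis.

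Whether the species responded differently was tested as an interaction on the 262 entries named in both. Of the 10 entries of the set tested, 0 were called by edgeR or by DESeq2, where 25.2% of all entries were called by edgeR, and 2 had an unadjusted p below 0.05. Those 2 are the snoZ157 pair on chromosome 4, with an interaction of -3.90 ± 1.78 on the log2 scale (edgeR adjusted p = 0.135). Since the pair had 0 reads in C. zofingiensis stress culture, that value depends on the prior count. It was called without C. zofingiensis normal library 1 or 2, which gave 2 calls in the set each time. Without normal library 3, the one library of that species in which the pair had reads, it was -1.46 (edgeR adjusted p = 0.9997). For snoZ103 the interaction was 0.06 ± 0.94 and for the second snoZ159 entry -0.53 ± 0.88 (edgeR adjusted p = 0.951 and 0.620).

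Levels between the species, as far as the shared Arabidopsis entries allow, differed for 5 of 10 entries in normal culture and 7 of 10 under stress. Of all 262 entries 40.5% and 67.6% were called. In the set 1 was higher and 4 were lower in C. zofingiensis in normal culture, and 1 and 6 under stress, while DESeq2's size factors gave 3 higher and 3 lower each time. SNORD14 was lower in C. zofingiensis by a log2 difference of -3.97 ± 0.57 in normal culture and -4.88 ± 0.71 under stress (edgeR adjusted p = 4.33e-05 and 1.10e-05), and was called in 20 of 20 alternatives each time. The first snoZ159 entry was higher in C. zofingiensis, by 4.45 ± 1.32 in normal culture (edgeR adjusted p = 0.0118), also in 20 of 20 alternatives. Its size rests on the 2 reads of C. sorokiniana normal library 1, without which the fitted value was 8.87 and depends on the prior count. The second snoZ159 entry was lower, at -1.72 ± 0.64 and -2.25 ± 0.65 (edgeR adjusted p = 0.0338 and 0.00490), but in normal culture the call held in 2 of 20 alternatives and under stress in 16. The snoZ157 pair on chromosome 4 was at least 15.5-fold lower in C. zofingiensis under stress, where it had 0 reads. That bound was 11.004-fold without C. zofingiensis stress library 2 and 31.1-fold without C. zofingiensis stress library 3.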

How the data were processed

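Small RNA of 12 libraries was sequenced from total RNA extracted with TRIzol, with the NEBNext Multiplex Small RNA kit, per the labels' protocols. The authors deposited per-library sheets of counts of reads at Arabidopsis entries, with a count divided by mapping loci (a signal), the commonest tag and its mapping loci, per the file headers. The smallest deposited count is 2, and an entry absent from a sheet was taken as 0. Results of the authors' own comparisons were deposited as well, as p-values and FDR values, per the file headers. A further deposited table lists counts of the 100 commonest tags per library. DESeq (no version) and the build TAIR9 appear in the submitters' processing notes. For aligner and trimming, settings were not given in the sources used here. Entry coordinates are those in the deposited names. No tag sequence is printed.

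Counts were tested with edgeR 4.0.16 (R 4.3.3), quasi-likelihood, two-sided, with TMM factors, filterByExpr, robust fitting and Benjamini-Hochberg adjustment over all entries of a fit. Each species was fitted alone on 6 libraries with condition as the term, and the interaction and the species contrasts on 12 libraries over entries named in both. SE is the log2 fold change divided by the square root of F. Normalised reads are per 10000 tested counts times the TMM factor. An exact permutation test (two-sided) was used for shares and numbers listed, adjusted over 12 tests. For an entry at 0 in a whole group, a bound was set against 3 counts per library, as shares of annotated counts without TMM factors. The smallest deposited count is 2, so an absent entry may have held 1 read, and the bounds would then be lower. Bounds cover counting error only, since reads carry no molecular identifiers. Same-numbered normal and stress libraries deviated together in each pair (correlation 0.161 to 0.331 in C. sorokiniana, and in C. zofingiensis 0.102 to 0.742). An alternative fit therefore took the replicate number as a block. The main fits and the permutation tests did not pair the libraries. Pairs with different numbers were at 0.0288 or below in C. sorokiniana. Deviations were taken from the mean of the 3 libraries of a group and so sum to 0. Higher values for same-numbered pairs thus push the other pairs down, and this contrast is partly fixed by the calculation. In C. zofingiensis, normal library 1 with stress library 3 (0.237) and normal library 3 with stress library 2 (0.190) correlated more than the same-numbered pair 3 (0.102). On simulated counts with 8-fold changes, the C. sorokiniana fit recovered 26 of 26 changed entries among 153 with 1 false call, and the C. zofingiensis fit 30 of 30 among 238 with 0 false calls. The simulated counts were independent, with the same dispersion for every entry and no reads shared between entries. They therefore check that the fit runs as intended and do not show how reliable the calls in these libraries are. DESeq2 1.42.0 served as an alternative. Figures were drawn with matplotlib 3.10.9 in Python 3.11.15, and tables made with numpy 2.4.6 and pandas 2.3.3.

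Entries that passed the filter in a fit, and the 10 with the highest mean share of annotated counts, are given with their counts in each library, and the rest by range. The members, the lists by namesake role and the other snoRNAs used for comparison were chosen with earlier results of these data known.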

Additional observations from a re-analysis of the deposited data

How the results depend on the processing

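Counts of called entries of the set moved by more than 1.5 times in these cases. In C. sorokiniana, where 5 were called, 1 was with DESeq2's size factors and 3 with identical counts entered once, and 1 to 5 with 1 library left out. In C. zofingiensis, where 7 were called, 1 was with library totals alone. Without a filter 6 were called in each species. For normal culture between the species, 5 became 10 with the entries of either species and 3 with identical counts once, and 2 to 6 with 1 library left out. Under stress between the species, 7 became 4 with totals alone and 5 to 7 with 1 library left out. The interaction gave 0, or 0 to 2 with 1 library left out. The cause was not tested. With the replicate block 5 entries were called in C. sorokiniana and 9 in C. zofingiensis. Beside SNORD27 and the second snoZ102_R77 entry of C. zofingiensis, the block changed 1 call: snoZ103 between the species under stress had a log2 difference of -1.42 (edgeR adjusted p = 0.0585).

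Some directions reversed, 1 of them for a called value, snoZ103. The snoZ43 pair in C. zofingiensis was at -0.11 with totals alone and between -0.18 and 0.64 with 1 library left out. The chromosome 3 entry of snoZ157 in C. zofingiensis was at 0.36 without tRNA entries. Between the species under stress, snoZ103 was called lower and was at 0.0475 without tRNA entries. The number of entries listed in C. zofingiensis, stress minus normal, was -0.667 and ran from -1.67 to 0.83 with 1 library left out. The shares were lower under stress under each alternative. Divided by mapping loci, the share of annotated counts was 7.49% in normal and 2.38% in stress culture of C. sorokiniana, and 6.44% and 0.846% in C. zofingiensis. With counts as low as these, an entry at 0 in the shallowest library could hold up to 0.110% of its annotated counts. That limit would be higher if the entry held 1 read that the sheets do not list.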
